A study of Sus scrofa with 2 samples.

Results

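NQO1, NCAM2 and NRP2, 3 of the 25880 genes in the deposited tables, were followed through single nuclei of the olfactory mucosa of newborn piglets (Sus scrofa). They mark zones of the olfactory epithelium in mouse, and they were selected on their measured levels in the neurons of the 2 libraries, which differed in earlier results of these data. Those levels are therefore given as a description. With 1 library per genotype nothing was tested. All 3 genes had at least 20 UMIs (unique molecular identifiers, each a captured transcript) in mature neurons, so that none was lost to a filter. CFTR_KO was a library from a CFTR knock out piglet, and WT a library from a wild type piglet. CFTR is an anion channel of epithelia, and cystic fibrosis follows from its loss. Both piglets were newborn, and both libraries came from dissected, frozen and cryosectioned olfactory neuroepithelium homogenised in a citric acid buffer. With 1 library per genotype, genotype, animal, dissected piece of epithelium and library preparation cannot be told apart.

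An olfactory neuron in mouse belongs to a zone of the epithelium, and each zone sends its axons to its own part of the olfactory bulb. NQO1 encodes a cytosolic quinone reductase, a target of the antioxidant transcription factor NRF2, and in mouse it marks neurons of the dorsal zone. NCAM2, also called OCAM, encodes a homophilic adhesion molecule of the immunoglobulin family, and in mouse it marks neurons outside the dorsal zone. NRP2 encodes neuropilin 2, a coreceptor for semaphorin 3F and for VEGF-C, which is graded across zones on mouse olfactory axons and is also known from lymphatic endothelium. No position in the tissue was recorded for any nucleus here, so that zones were not observed directly.

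After filtering, 5761 CFTR_KO nuclei with a median of 2093 UMIs and 4536 WT nuclei with a median of 2966 UMIs remained. Fewer than 1000 UMIs were found in 1325 CFTR_KO and 378 WT nuclei. The tables shared 8 barcodes. CFTR itself stood at 12.7 CPM (192 UMIs) in CFTR_KO and 88.9 CPM (1523 UMIs) in WT, where CPM is a gene's share of the summed UMIs of a set of nuclei, times 1000000. Nuclei were clustered without NQO1, NCAM2, NRP2, CFTR and mitochondrial transcripts, and clusters were named with "-like" from marker genes. Mature neuron-like nuclei numbered 887 in CFTR_KO and 874 in WT. They were held by clusters 4, 8 and 23, which carried 8, 7 and 12 of the mature markers, among them GNG13, GNAL, ADCY3 and CNGB1 of odorant signalling. The libraries filled these clusters differently. Cluster 4 held 813 CFTR_KO and 30 WT nuclei, cluster 8 held 47 CFTR_KO and 591 WT nuclei, and cluster 23 held 27 CFTR_KO and 253 WT nuclei. Immature neuron-like nuclei (566 in CFTR_KO, 884 in WT) carried STMN2, DCX and CRMP1, and neuronal precursor-like nuclei (118 in CFTR_KO, 184 in WT) carried NEUROD1 and TOP2A. Intervals below are 95% intervals that cover counting error only.

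In mature neuron-like nuclei NQO1 was higher in CFTR_KO, at 184 CPM (168.6 to 200.6, 519 UMIs), against 64.4 CPM (56.5 to 73.0, 242 UMIs) in WT, a log2 ratio of 1.52 (1.29 to 1.74). NCAM2 was lower in CFTR_KO, at 230.5 CPM (213.1 to 248.9, 650 UMIs), against 805.2 CPM (776.8 to 834.5, 3026 UMIs) in WT, a log2 ratio of -1.81 (-1.93 to -1.68). NRP2 was also lower in CFTR_KO, at 58.9 CPM (50.3 to 68.5, 166 UMIs), against 138.6 CPM (127.0 to 151.1, 521 UMIs) in WT, a log2 ratio of -1.24 (-1.50 to -0.98). The dorsal marker of mouse thus stood higher and both other genes lower in the CFTR_KO library. All 3 genes passed a 2-fold difference. Among the 12036 genes measured in these nuclei, 5.18% were at least 2-fold higher and 3.18% at least 2-fold lower in CFTR_KO, and these ratios were among those that chose the genes. Of the measured genes, 230 had a higher ratio than NQO1, 53 a lower ratio than NCAM2 and 208 a lower ratio than NRP2. The median log2 ratio of all genes was 0.07, and scaling by TMM or by the median of ratios moved the ratios by 0.10 or 0.09.

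The differences lay in how many nuclei had a UMI, and for NCAM2 and NRP2 also in how many UMIs such a nucleus had. NQO1 was detected in 258 of 887 CFTR_KO nuclei (29.1%) and in 111 of 874 WT nuclei (12.7%). A nucleus with NQO1 held 2.01 NQO1 UMIs on average in CFTR_KO and 2.18 in WT. NCAM2 was detected in 28.2% of CFTR_KO nuclei and 69.2% of WT nuclei, with 2.60 UMIs per detecting nucleus in CFTR_KO and 5.00 in WT. NRP2 was detected in 12.4% of CFTR_KO and 30.6% of WT nuclei, with 1.51 and 1.95 UMIs per detecting nucleus in CFTR_KO and WT. For NQO1 the number of detecting nuclei differed and the UMIs per detecting nucleus were close, while for NCAM2 and NRP2 both were lower in CFTR_KO. UMIs per detecting nucleus are at least 1 by definition and were not adjusted for depth. Median depth in mature neuron-like nuclei was 2905 UMIs in CFTR_KO and 3845 UMIs in WT. With each nucleus thinned at random, in 1 draw, to 1000 UMIs, NQO1 was detected in 14.9% (12.6 to 17.4) of CFTR_KO and 5.32% (3.92 to 7.04) of WT nuclei. Thinned NCAM2 shares were 14.4% (12.2 to 16.9) in CFTR_KO and 43.6% (40.3 to 47.0) in WT, and thinned NRP2 shares were 4.96% (3.61 to 6.62) and 10.8% (8.78 to 13.0) in CFTR_KO and WT. At equal depth the intervals of the libraries did not overlap for these genes, which were selected on their levels in these neurons. The share of all genes with such thinned intervals was not counted. Without thinning, 20.4% of the 12036 measured genes had a ratio of CFTR_KO over WT with an interval above 0, and 11.6% one below 0.

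Levels also followed the cluster. In cluster 4, NQO1 stood at 202.7 CPM in 813 CFTR_KO nuclei and at 129 CPM (12 UMIs) in 30 WT nuclei, a log2 ratio of 0.65 whose interval included 0 (-0.17 to 1.61). In clusters 8 and 23, where CFTR_KO had few nuclei, NQO1 stood at 32.7 and 54.2 CPM in CFTR_KO (8 and 4 UMIs) and at 53.9 and 84.3 CPM in WT. The higher NQO1 of the CFTR_KO library was thus carried by cluster 4, and a difference within any 1 cluster was not detectable with these numbers of nuclei. NCAM2 was lower in CFTR_KO within each of the 3 clusters, by a log2 ratio of -1.53 (-1.93 to -1.10) in cluster 4, -0.92 (-1.21 to -0.64) in cluster 8 and -0.92 (-1.52 to -0.38) in cluster 23. In cluster 4 the WT level came from 55 NCAM2 UMIs in 8 of 30 nuclei, with up to 21 UMIs in a nucleus. NCAM2 was detected there in 25.7% of CFTR_KO and 26.7% of WT nuclei. After thinning these shares were 13.1% (10.8 to 15.6) and 26.9% (11.6 to 47.8), with intervals that overlapped. NRP2 was lower within cluster 4 (-1.46, -2.25 to -0.55) and cluster 8 (-0.65, -1.34 to -0.03), and its interval in cluster 23 included 0 (-0.49, -1.83 to 0.59). The WT level of NRP2 in cluster 4 came from 14 UMIs in 4 nuclei, with up to 10 UMIs in a nucleus. NRP2 was detected there in 11.4% of CFTR_KO and 13.3% of WT nuclei. The cluster 4 ratios of NCAM2 and NRP2 thus rest on few WT nuclei. Some markers of mature neurons also differed between the libraries, although the sum of all 12 mature markers was close. That sum stood at 6840.7 CPM in CFTR_KO and 7170.8 CPM in WT mature neuron-like nuclei. STOML3, a membrane protein of olfactory cilia, stood at 367.7 CPM in CFTR_KO and 757.6 CPM in WT mature neuron-like nuclei, and CNGA2, the cyclic nucleotide-gated channel subunit of odorant signalling, at 35.1 CPM in CFTR_KO and 76.1 CPM in WT. The part of such marker differences in the NCAM2 and NRP2 ratios was not tested.

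Along the neuronal lineage the genes peaked at different stages. The precursor-like nuclei had the most of the cell cycle gene TOP2A, at 418.3 CPM in CFTR_KO and 352.6 CPM in WT. Immature cluster 22 had TEX15 among its leading genes and 524 CPM (CFTR_KO) and 438.4 CPM (WT) of the axon growth protein GAP43. Immature cluster 11 had the highest GAP43, at 1025.5 CPM in CFTR_KO and 1159 CPM in WT. This order of stages was set from the markers and not from a measured time. NQO1 in CFTR_KO stood at 28.2, 41.8, 45.8 and 184 CPM from precursor-like nuclei through clusters 22 and 11 to mature neuron-like nuclei. NQO1 in WT stood at 13.1, 31.8, 18.7 and 64.4 CPM over the same stages. NQO1 was thus highest in mature nuclei of both libraries, with a log2 ratio of mature over immature nuclei of 2.03 in CFTR_KO and 1.35 in WT.

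NCAM2 in CFTR_KO stood at 74.7 CPM in precursor-like nuclei, 607.7 CPM in cluster 22, 413.6 CPM in cluster 11 and 230.5 CPM in mature neuron-like nuclei. NCAM2 in WT stood at 136.9, 699.2, 1047.1 and 805.2 CPM over the same stages. In CFTR_KO its highest level was thus in cluster 22 and in WT in cluster 11, and the mature over immature log2 ratio was -0.96 in CFTR_KO and -0.12 in WT. NRP2 peaked in cluster 22 of both libraries, at 337.3 CPM in CFTR_KO and 350.7 CPM in WT. It then stood at 142.1 CPM (CFTR_KO) and 184.5 CPM (WT) in cluster 11, and its mature over immature log2 ratio was -1.59 in CFTR_KO and -0.95 in WT.

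**Figure D1:**
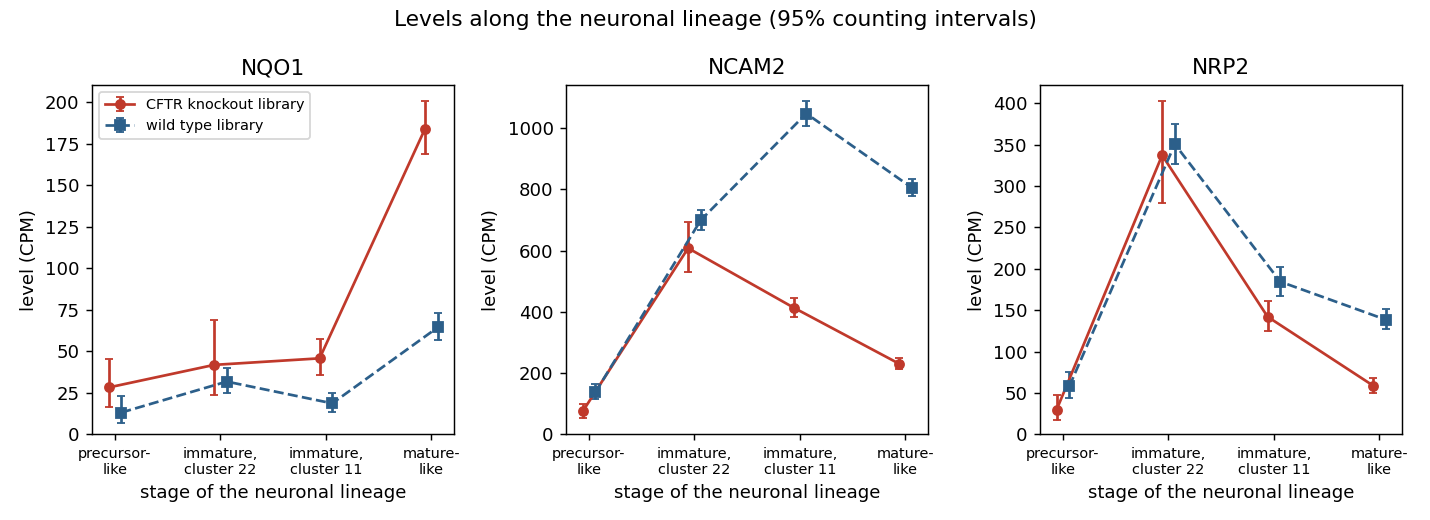
Levels of NQO1, NCAM2 and NRP2 (CPM, linear axes from 0) at 4 stages of the neuronal lineage, with red circles for CFTR_KO and blue squares for WT and bars for exact Poisson 95% intervals. NQO1 was highest in mature nuclei of both libraries, NRP2 peaked in cluster 22, and the libraries' NCAM2 levels lay close in cluster 22 and apart in cluster 11 and in mature nuclei.

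The libraries lay closest in cluster 22. There the log2 ratio of CFTR_KO over WT was -0.20 (-0.41 to 0.00) for NCAM2, -0.06 (-0.34 to 0.22) for NRP2 and 0.40 (-0.51 to 1.21) for NQO1. In cluster 11 it was -1.34 (-1.46 to -1.22) for NCAM2, -0.38 (-0.61 to -0.14) for NRP2 and 1.29 (0.74 to 1.86) for NQO1. The NCAM2 intervals of the 2 clusters did not overlap. The precursor-like nuclei stood between them for NCAM2, with a log2 ratio of -0.87 (-1.40 to -0.37) from 45 CFTR_KO and 125 WT UMIs. For NRP2 their log2 ratio was -0.96 (-1.82 to -0.16, 18 CFTR_KO and 53 WT UMIs), further from 0 than in either cluster. For NQO1 it was 1.10 (-0.05 to 2.30, 17 CFTR_KO and 12 WT UMIs). The libraries thus already differed in NCAM2 and NRP2 in the precursor-like nuclei.

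In single mature nuclei, NQO1 and NCAM2 were mostly detected apart. Of 887 CFTR_KO nuclei, 214 (24.1%) had NCAM2 without NQO1, 222 (25.0%) had NQO1 without NCAM2, 36 (4.06%) had both and 415 (46.8%) had neither. Of 874 WT nuclei, 564 (64.5%) had NCAM2 without NQO1, 70 (8.01%) had NQO1 without NCAM2, 41 (4.69%) had both and 199 (22.8%) had neither. Independent detection would have given 72.7 nuclei with both in CFTR_KO and 76.8 in WT, so that the observed numbers were 0.495 and 0.534 of that count in CFTR_KO and WT. The share of nuclei with both was thus close in the libraries, although the balance of the genes was not.

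**Figure D2:**
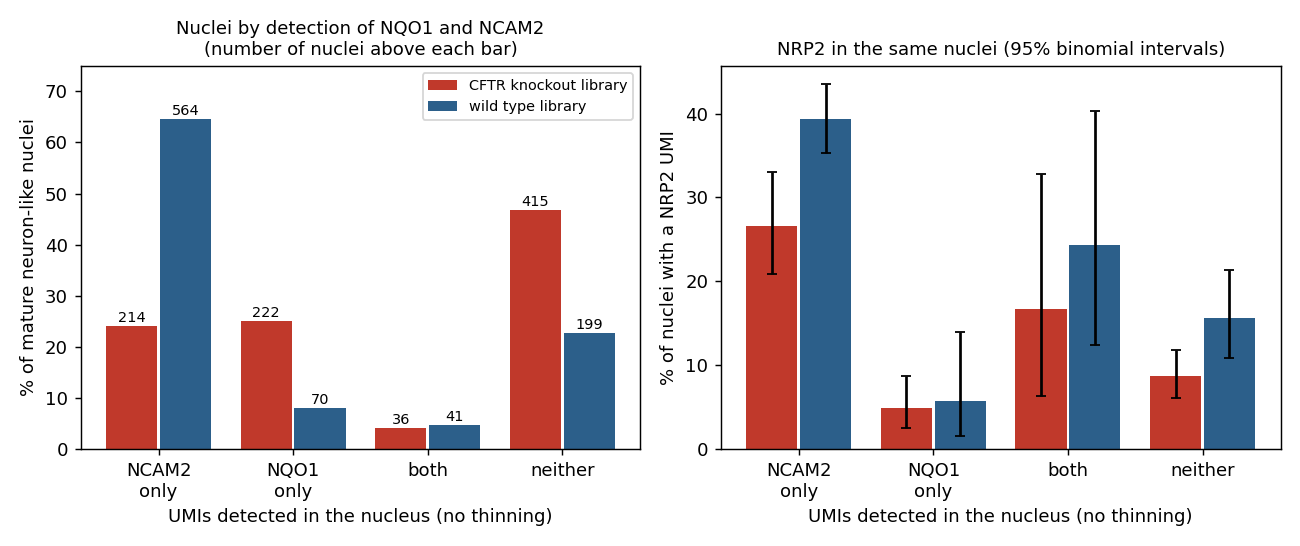
Left, percent of mature neuron-like nuclei of each library with a UMI of NCAM2 only, of NQO1 only, of both or of neither, with the number of nuclei above each bar. Right, percent of the same nuclei with a NRP2 UMI and exact 95% binomial intervals, with CFTR_KO in red left of WT in blue. Without thinning, as drawn here, NRP2 was most often detected in NCAM2-only nuclei and least often in NQO1-only nuclei of both libraries.

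At equal depth the separation remained. After thinning to 1000 UMIs, NCAM2 was detected in 5 of 129 CFTR_KO nuclei with NQO1 (3.88%, 1.27 to 8.81) and in 16.3% (13.7 to 19.1) of those without NQO1. In WT it was detected in 10 of 46 nuclei with NQO1 (21.7%, 10.95 to 36.4) and in 44.9% (41.4 to 48.4) of those without. Without thinning the shares were 14.0% with NQO1 and 34.0% without in CFTR_KO, and 36.9% with NQO1 and 73.9% without in WT. In all 26 pairs made of the 2 libraries and 13 processing settings, NCAM2 was less often detected in nuclei with NQO1. The settings reuse nuclei of the same 2 libraries, so that they are no separate support. The separation was also present within a cluster. In cluster 4 of CFTR_KO, NCAM2 was detected in 3.97% (1.30 to 9.02) of thinned nuclei with NQO1 and in 14.8% (12.2 to 17.7) of those without. In cluster 8 of WT it was detected in 26.7% (12.3 to 45.9) of thinned nuclei with NQO1 and in 46.2% (42.0 to 50.4) of those without, so that those intervals overlapped.

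Of thinned mature nuclei with exactly 1 of these 2 genes, 49.2% (42.8 to 55.6) were NCAM2-only in CFTR_KO and 91.1% (87.9 to 93.7) in WT. The share with NQO1 was lower in nuclei with more NCAM2 UMIs, up to 5 to 9 UMIs. NQO1 was detected in 34.9%, 17.8%, 13.0% and 10.5% of CFTR_KO nuclei with 0, 1, 2 to 4 and 5 to 9 NCAM2 UMIs, and in 0 of the 5 CFTR_KO nuclei with 10 or more, a share that may still be up to 60.0%. In WT it was detected in 26.0%, 12.1%, 6.55%, 3.41% and 6.58% of nuclei with 0, 1, 2 to 4, 5 to 9 and 10 or more NCAM2 UMIs. Median depth went the other way, being 2765 UMIs with no NCAM2 UMI and 7898 UMIs with 10 or more in CFTR_KO, and 3246 and 6609 UMIs in WT. Read from the other gene, NCAM2 was detected in 18.0% of the CFTR_KO nuclei with 1 NQO1 UMI and 9.09% of those with 2 to 4, and in 52.1% and 11.5% of such WT nuclei.

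**Figure D3:**
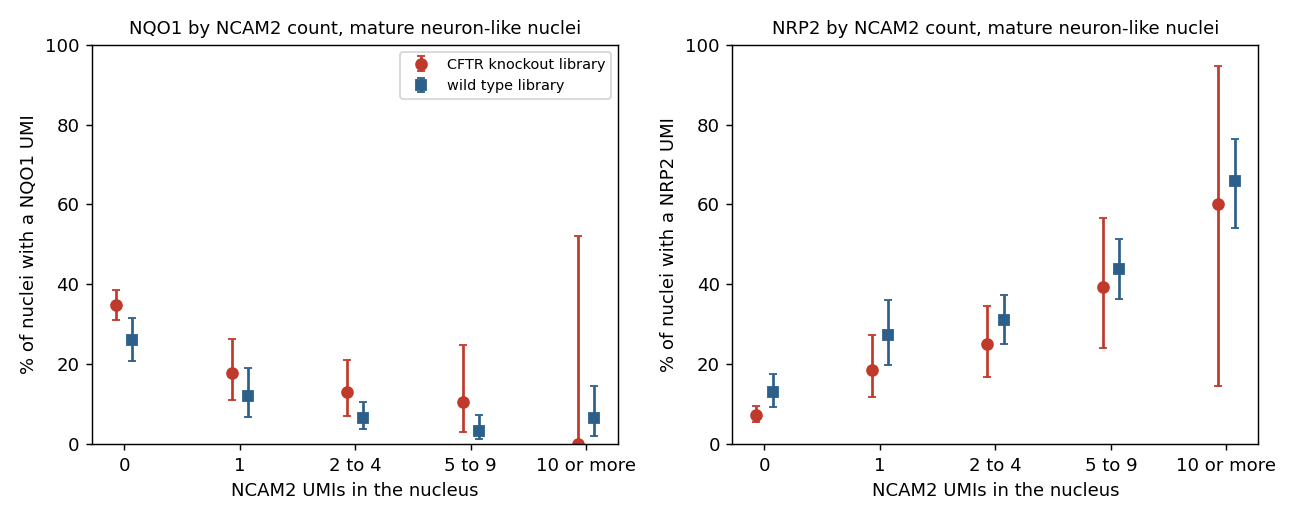
Percent of mature neuron-like nuclei with a NQO1 UMI (left) and with a NRP2 UMI (right) by the number of NCAM2 UMIs in the nucleus, with red circles for CFTR_KO, blue squares for WT and exact 95% binomial intervals. From 0 to 5 to 9 NCAM2 UMIs the NQO1 share fell at each step and the NRP2 share rose at each step in both libraries. Nuclei were not thinned, and their median depth also rose at each of these steps. The group with 10 or more holds 5 CFTR_KO and 76 WT nuclei.

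The few nuclei with both genes mostly had 1 of them at a single UMI, which was so in 32 of 36 CFTR_KO and 39 of 41 WT nuclei. They were deeper than the others, with median depths of 4166 UMIs in CFTR_KO and 4586 UMIs in WT, against 3419.5 and 4112 UMIs in NCAM2-only nuclei of CFTR_KO and WT. Their median doublet scores were 0.0452 in CFTR_KO and 0.0346 in WT, against 0.0381 and 0.0374 in NCAM2-only nuclei. The part of doublets and free RNA in these nuclei was not tested.

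Immature nuclei did not show the separation at equal depth. After thinning, NCAM2 was detected in 29.2% (12.6 to 51.1) of CFTR_KO immature nuclei with NQO1 and in 26.3% (22.5 to 30.3) of those without, and in 45.5% (24.4 to 67.8) of WT immature nuclei with NQO1 and 48.5% (45.1 to 52.0) of those without. These values rest on 24 CFTR_KO and 22 WT nuclei with NQO1. Without thinning the shares were 30.3% with NQO1 and 45.9% without in CFTR_KO, and 64.6% and 72.9% in WT.

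NRP2 went with NCAM2 in mature nuclei, and it was not used to form the sets. In CFTR_KO it was detected in 57 of 214 NCAM2-only nuclei (26.6%, 20.8 to 33.1) and in 11 of 222 NQO1-only nuclei (4.96%, 2.50 to 8.69). In WT it was detected in 222 of 564 NCAM2-only nuclei (39.4%, 35.3 to 43.5) and in 4 of 70 NQO1-only nuclei (5.71%, 1.58 to 14.0). In thinned nuclei the shares were 11.4% in NCAM2-only and 2.74% in NQO1-only nuclei of CFTR_KO, and 13.9% and 1.43% in WT. The intervals of NCAM2-only and NQO1-only nuclei did not overlap in CFTR_KO (7.46 to 16.5 and 1.01 to 5.87) nor in WT (11.2 to 17.1 and 0.04 to 7.70). Before thinning, nuclei with neither gene stood between, with NRP2 in 8.68% of CFTR_KO and 15.6% of WT nuclei. After thinning their share was 2.49% (1.20 to 4.53) in CFTR_KO, no higher than in NQO1-only nuclei, and 6.77% (3.65 to 11.3) in WT.

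As a level, NRP2 stood at 126.3 CPM (99 UMIs) in NCAM2-only and 17.1 CPM (12 UMIs) in NQO1-only nuclei of CFTR_KO, a log2 ratio of 2.89 (2.02 to 3.89). In WT it stood at 169.2 CPM (436 UMIs) in NCAM2-only and 17.2 CPM (5 UMIs) in NQO1-only nuclei, a log2 ratio of 3.30 (2.06 to 4.93). With mature neurons taken nucleus by nucleus, from a UMI of at least 3 mature markers, the log2 ratio was 2.36 (1.93 to 2.82) in CFTR_KO and 1.54 (1.16 to 1.96) in WT. NRP2 was thus one of the genes at least 2-fold higher in NCAM2-only nuclei of both libraries, which made up 0.652% of the 8285 genes measured in the sets. With genes whose symbol was given and not duplicated, and leaving out the 2 genes that form the sets, it ranked 4 by the smaller of its 2 ratios. Among nuclei with NCAM2 the share with NRP2 also followed the NCAM2 count, from 18.7% of nuclei with 1 UMI to 39.5% with 5 to 9 UMIs in CFTR_KO, and from 27.4% to 43.8% over the same counts in WT. These nuclei were not thinned, and their median depth rose too, from 2889 to 4706.5 UMIs in CFTR_KO and from 3401.5 to 4585.5 UMIs in WT. The part of depth in this rise was not tested.

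NQO1 and NRP2 were detected together in few nuclei, and each gene alone was also detected in a minority of nuclei. After thinning, NRP2 was detected in 5 of 129 CFTR_KO nuclei with NQO1 (3.88%, 1.27 to 8.81) and in 5.15% (3.67 to 7.00) of those without, intervals that overlapped. In WT it was detected in 0 of 46 nuclei with NQO1, which allows a share of up to 6.52%, and in 11.4% (9.28 to 13.8) of those without. Independent detection would have given 6.40 thinned nuclei with both in CFTR_KO, beside the 5 observed, and 4.95 in WT, beside 0 observed. Before thinning it would have given 32 in CFTR_KO, beside 17 observed, and 33.9 in WT, beside 14 observed. Without thinning the shares were 6.59% (3.89 to 10.3) with NQO1 and 14.8% (12.1 to 17.8) without in CFTR_KO, and 12.6% (7.07 to 20.3) and 33.2% (29.8 to 36.6) in WT.

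Within the NCAM2-only and NQO1-only sets, the ratios of CFTR_KO over WT lay nearer to 0 than over all mature nuclei. NQO1 in NQO1-only nuclei stood at 667.6 CPM in CFTR_KO and 665 CPM in WT, a log2 ratio of 0.01 (-0.24 to 0.26). NRP2 in NQO1-only nuclei stood at 17.1 CPM in CFTR_KO and 17.2 CPM in WT, from 12 and 5 UMIs, a log2 ratio of -0.01 with a wide interval (-1.62 to 1.85). NRP2 in NCAM2-only nuclei was lower in CFTR_KO by a log2 ratio of -0.42 (-0.75 to -0.10), against -1.24 over all mature nuclei. NCAM2 in NCAM2-only nuclei stood at 734.9 CPM in CFTR_KO and 1103.7 CPM in WT, a log2 ratio of -0.59 (-0.72 to -0.46), against -1.81 over all mature nuclei. In the other sets the NRP2 log2 ratio was -1.27 (-2.61 to -0.10, 8 and 28 UMIs) in nuclei with both genes and -0.97 (-1.57 to -0.37) in nuclei with neither, and both intervals included the -1.24 of all mature nuclei. A set formed by detecting a gene holds nuclei above the limit of detection for that gene, and this limit depends on depth, which differed between the libraries. Every NQO1-only nucleus has at least 1 NQO1 UMI by definition, and every NCAM2-only nucleus at least 1 NCAM2 UMI. This rule brings the libraries nearer to each other for the gene that forms the set. The NQO1 and NCAM2 ratios in their own sets therefore do not show whether the level per neuron was equal.

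Other genes that separated the same nuclei in both libraries were named by rank. At least 2-fold lower in NCAM2-only than in NQO1-only nuclei of both libraries were 0.278% of the 8285 measured genes. The 10 genes furthest towards NCAM2-only nuclei were CDH8, CDH18, PARD3B, NRP2, PLAGL1, CELF4, SEZ6L, NFIB, LSAMP and ANGPT1. CDH18, a type II cadherin, stood at 190.1 CPM in NCAM2-only and 12.8 CPM in NQO1-only nuclei of CFTR_KO, and at 274.4 CPM (707 UMIs) and 3.45 CPM (1 UMI) in WT. CDH8, another type II cadherin, stood at 103.3 and 5.69 CPM in NCAM2-only and NQO1-only nuclei of CFTR_KO, and at 145.9 CPM (376 UMIs) and 3.45 CPM (1 UMI) in WT. PARD3B, related to the cell polarity protein PAR3, had log2 ratios of 3.51 (2.48 to 4.77) in CFTR_KO and 4.33 (2.97 to 6.21) in WT. LSAMP, an adhesion protein of the immunoglobulin family, had log2 ratios of 2.18 (1.71 to 2.67) in CFTR_KO and 2.50 (1.79 to 3.32) in WT. ANGPT1 encodes a ligand of the endothelial receptor TEK, CELF4 an RNA-binding protein and PLAGL1 a zinc finger protein. The WT intervals of PLAGL1 and SEZ6L included 0, with 1 UMI of each in NQO1-only nuclei.

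The 10 genes furthest towards NQO1-only nuclei were DCC, FAM19A4, HS3ST5, SGMS1, ACSM4, CYP26B1, PAPSS2, NXPH1, PPA1 and HS3ST3A1. DCC, an axonal receptor for netrin, stood at 10.2 CPM in NCAM2-only and 468.3 CPM in NQO1-only nuclei of CFTR_KO, and at 9.70 and 227.4 CPM in WT, log2 ratios of -5.52 (-6.74 to -4.52) and -4.55 (-5.28 to -3.87). FAM19A4, a secreted chemokine-like protein, had log2 ratios of -3.85 in CFTR_KO and -3.84 in WT. HS3ST5, a heparan sulfate sulfotransferase, stood at 185 and 990.7 CPM in NCAM2-only and NQO1-only nuclei of CFTR_KO, and at 140.1 and 771.8 CPM in WT. HS3ST3A1 is a sulfotransferase of the same family, and PAPSS2 makes the sulfate donor that such enzymes use. CYP26B1 breaks down retinoic acid, and SGMS1 makes sphingomyelin. The intervals of all 10 of these genes lay below 0 in both libraries.

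**Figure D4:**
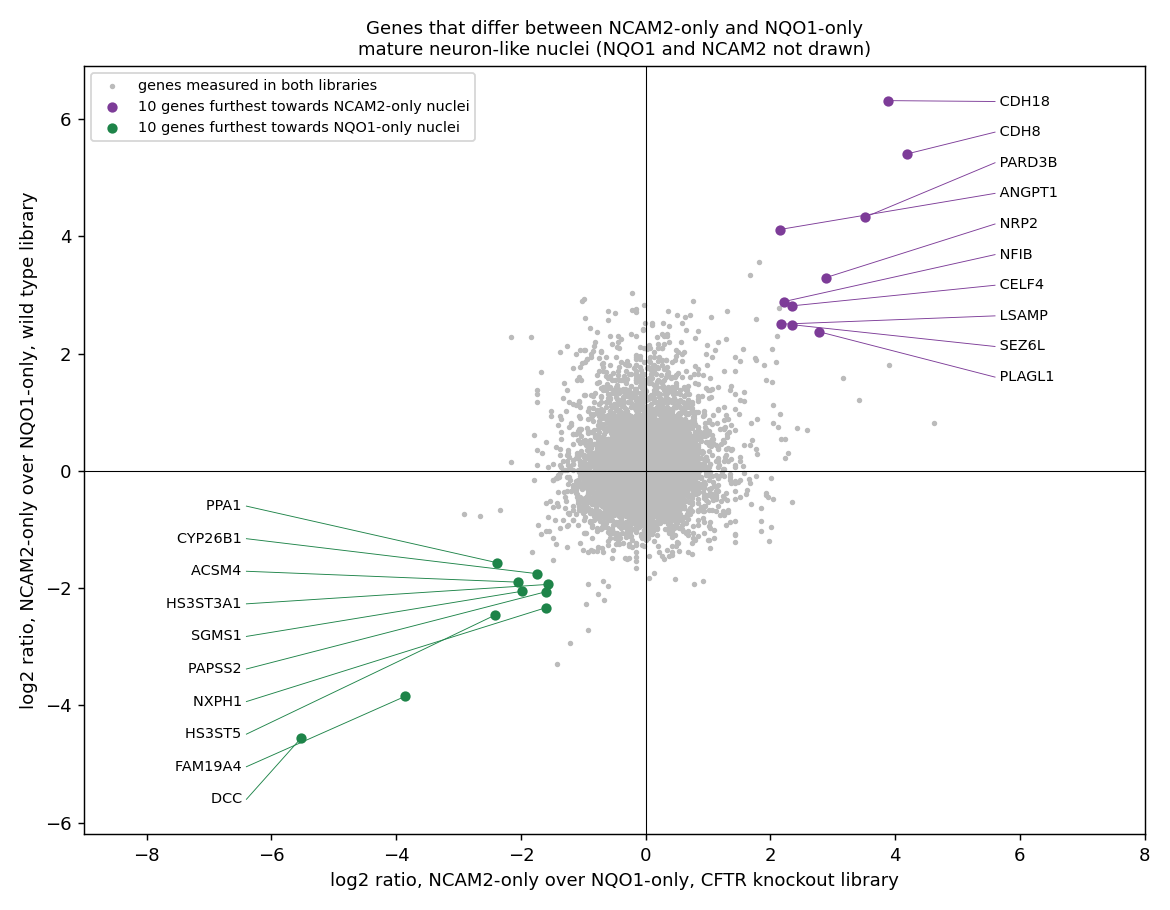
Log2 ratio of CPM in NCAM2-only over NQO1-only mature neuron-like nuclei, in CFTR_KO on the x axis and in WT on the y axis, with 1 point per measured gene and the 10 genes furthest towards each set named. NRP2 lies at 2.89 in CFTR_KO and 3.30 in WT, and DCC lies furthest towards NQO1-only nuclei, at -5.52 and -4.55; NQO1 and NCAM2 form the sets and are not drawn.

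Between the libraries, genes of the NQO1 side were higher in CFTR_KO and most of the NCAM2 side lower. All 10 genes of the NQO1 side had a log2 ratio of CFTR_KO over WT in mature nuclei with an interval above 0, and 7 of them were at least 2-fold higher, where 20.4% of the 12036 measured genes had an interval above 0 and 5.18% were at least 2-fold higher. DCC stood at 227.3 CPM in CFTR_KO and 35.7 CPM in WT mature nuclei, and FAM19A4 at 155 CPM in CFTR_KO and 15.4 CPM in WT. On the NCAM2 side, 7 of 10 genes had an interval below 0 and 4 were at least 2-fold lower, among them CDH18 at 83.0 CPM in CFTR_KO and 210.8 CPM in WT. Of all measured genes, 11.6% had an interval below 0 and 3.18% were at least 2-fold lower. ANGPT1 (59.9 CPM in CFTR_KO, 57.5 CPM in WT) and PLAGL1 and SEZ6L had intervals that included 0. The sets and the library ratios use the same nuclei and NQO1-only nuclei were more frequent in CFTR_KO, so that these directions are no separate support.

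A list of genes known to be zonal or to guide olfactory axons in mouse held 20 genes of the tables, of which 17 were measured in the sets. In CFTR_KO 2 of the 17 were at least 2-fold higher and 1 at least 2-fold lower in NCAM2-only nuclei, where 2.56% and 2.41% of all measured genes were. In WT 3 were higher and 2 lower, against 6.78% and 1.98% of all measured genes. The list had a median log2 ratio of 0.11 in CFTR_KO and 0.19 in WT against -0.02 and 0.03 over all measured genes. NFIA and NFIB, transcription factors that in mouse act on zonal receptor choice, were higher in NCAM2-only nuclei. NFIA stood at 247.5 and 82.6 CPM in NCAM2-only and NQO1-only nuclei of CFTR_KO and at 317.1 and 124 CPM in WT, log2 ratios of 1.58 (1.15 to 2.03) and 1.35 (0.87 to 1.88). NFIB had log2 ratios of 2.22 (1.69 to 2.79) in CFTR_KO and 2.89 (1.90 to 4.11) in WT. ACSM4, an acyl-CoA synthetase that marks the dorsal zone in mouse, was lower in NCAM2-only nuclei, at 48.5 and 199.3 CPM in NCAM2-only and NQO1-only nuclei of CFTR_KO and at 55.5 and 206.7 CPM in WT. ROBO2, a Slit receptor of mouse dorsal axons, had log2 ratios of -0.78 (-0.92 to -0.65) in CFTR_KO and -0.77 (-0.92 to -0.61) in WT, and its ligand gene SLIT1 had 0.71 (0.45 to 0.97) and 0.84 (0.50 to 1.20). The other members past 2-fold were ROBO1 in WT (44.6 CPM in NCAM2-only and 6.89 CPM in NQO1-only nuclei, 115 and 2 UMIs) and the ephrin gene EFNA5 in WT (462.6 and 937.2 CPM). CFTR_KO did not share these differences. There the log2 ratio was -0.495 (-1.44 to 0.43) for ROBO1 and 0.04 (-0.19 to 0.26) for EFNA5. SEMA3F, the NRP2 ligand, had only 10 UMIs in the CFTR_KO and 15 in the WT sets, too few to be measured.

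Lists of partner and pathway genes were read against the same background, in which 2.56% of all measured genes were at least 2-fold higher and 2.41% at least 2-fold lower in NCAM2-only nuclei of CFTR_KO, and 6.78% higher and 1.98% lower in those of WT. Of 6 measured semaphorin, VEGF and plexin genes, 2 were at least 2-fold higher in NCAM2-only nuclei in CFTR_KO and 1 in WT. SEMA3A, a ligand of neuropilin 1, was one of them in CFTR_KO at a log2 ratio of 1.71 (1.28 to 2.15), while in WT it was 0.53 (-0.07 to 1.20). The other in CFTR_KO was SEMA3D (27 UMIs in NCAM2-only and 5 in NQO1-only nuclei), and the 1 in WT was SEMA3E (106 UMIs in NCAM2-only and 0 in NQO1-only nuclei). None of 10 measured immunoglobulin adhesion genes passed 2-fold in either library, and NCAM1, the paralog of NCAM2, had log2 ratios of 0.14 in CFTR_KO and -0.07 in WT. Of 11 measured NRF2 pathway genes, 1 in CFTR_KO and 0 in WT were at least 2-fold higher in NCAM2-only nuclei and none lower. The 1 gene was the malic enzyme gene ME1, at 100.8 CPM in NCAM2-only and 49.8 CPM in NQO1-only nuclei. Between the libraries, 12 of 15 NRF2 pathway genes had a ratio of CFTR_KO over WT above 0 in mature nuclei and 3 were at least 2-fold higher, where 57.2% of all genes had a ratio above 0 and 5.18% were at least 2-fold higher. The list median was 0.31, against 0.07 over all genes. These 3 were the peroxiredoxin PRDX1 (128.4 CPM in CFTR_KO, 46.6 CPM in WT), the heme oxygenase HMOX1 (21 UMIs in CFTR_KO, 7 in WT) and the sulfiredoxin SRXN1 (26 UMIs in CFTR_KO, 13 in WT).

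Outside the neurons the genes parted. The neuronal lineage held 84.1% of the NCAM2 UMIs in CFTR_KO and 93.4% in WT, 49.6% and 58.9% of the NQO1 UMIs, and 40.8% and 65.8% of the NRP2 UMIs in CFTR_KO and WT, while it held 35.8% of all UMIs in CFTR_KO and 55.3% in WT. In 17 classes or clusters with at least 30 nuclei in both libraries, NQO1 was higher in CFTR_KO in 16, with an interval above 0 in 8. NCAM2 was lower in CFTR_KO in 12, with an interval below 0 in 8. NRP2 was higher in 7 and lower in 10, with intervals off 0 in 2 and 5 of them. Mature and immature neuron-like nuclei were among those with intervals off 0 for each gene. Precursor-like nuclei were among those below 0 for NCAM2 and NRP2, and cluster 3 among those below 0 for NCAM2.

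**Figure D5:**
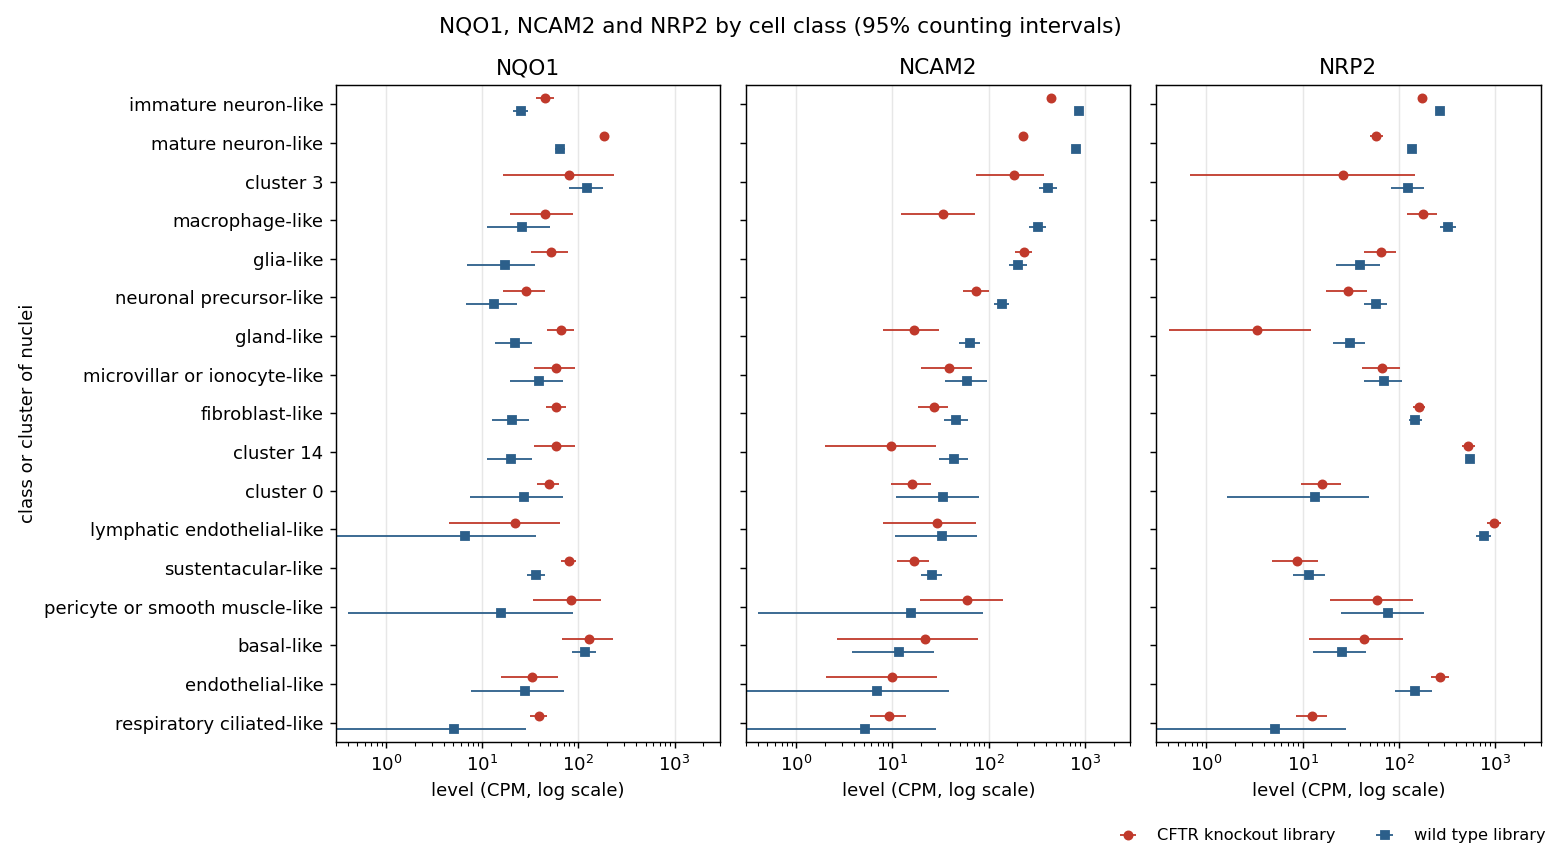
Levels of NQO1, NCAM2 and NRP2 (CPM, log axis) in 17 classes or clusters of nuclei, with red circles for CFTR_KO above blue squares for WT and bars for exact Poisson 95% intervals, classes in order of their WT level of NCAM2. NQO1 varied least between classes, NCAM2 was highest in immature and mature neuron-like nuclei of WT, and NRP2 was highest in lymphatic endothelial-like nuclei of both libraries.

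Among these 17 classes and clusters, NQO1 was most abundant in CFTR_KO in mature neuron-like nuclei, followed by basal-like nuclei at 130 CPM (67.2 to 227.1, 12 UMIs), whose interval overlapped. In WT basal-like nuclei (115.8 CPM, 85.9 to 152.6) stood above mature neuron-like nuclei (64.4 CPM), and cluster 3 stood at 121.5 CPM. Cluster 3 carried 8 mature neuron markers, among them CNGA2, GNG13 and STOML3, and stayed unnamed because of its depth, a median of 764.5 UMIs. Mitochondrial genes such as ND3 and COX2 were among its leading genes. Most neighbours in the order of NQO1 levels overlapped. Sustentacular-like nuclei, the support cells, had 79.3 CPM in CFTR_KO and 36.6 CPM in WT, a log2 ratio of 1.12 (0.72 to 1.52). NQO1 was also higher in CFTR_KO in fibroblast-like (58.2 CPM in CFTR_KO, 20.2 CPM in WT), gland-like (65.4 and 21.7 CPM) and glia-like nuclei (51.6 and 17.2 CPM, 22 and 7 UMIs). After thinning, NQO1 was detected in 6.55% of CFTR_KO and 2.76% of WT glia-like nuclei, with at most 2 UMIs in a nucleus, while single mature neuron-like nuclei held up to 13 NQO1 UMIs in CFTR_KO and 17 in WT. The median thinned share over 13 classes or clusters outside the neurons was 5.20% in CFTR_KO and 2.17% in WT, beside 14.9% and 5.32% in mature nuclei.

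Neuronal transcripts were found in every class. A sum of 6 neuron markers (CNGA2, GNG13, STOML3, RTP1, CNGA4 and S100A5) reached 398.4 to 1094.9 CPM in 11 named classes outside the neurons in CFTR_KO and 322.2 to 1046.8 CPM in WT. In mature neuron-like nuclei it was 1610.3 CPM in CFTR_KO and 2273.9 CPM in WT, and in cluster 3 it was 2145.6 CPM in CFTR_KO and 3297.8 CPM in WT. NQO1 in the same classes ranged from 21.9 to 130 CPM in CFTR_KO and from 5.12 to 115.8 CPM in WT. The part of free neuronal RNA in the NQO1 differences outside the neurons was not tested.

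NCAM2 outside the neurons was highest in glia-like nuclei in CFTR_KO, at 234.7 CPM (190.9 to 285.4) there and 203.4 CPM (162.0 to 252.1) in WT, a log2 ratio of 0.21 (-0.23 to 0.64). After thinning it was detected in 13.1% of CFTR_KO and 17.9% of WT glia-like nuclei, at median depths of 2060 and 2448 UMIs. In sustentacular-like nuclei, at median depths of 2583.5 UMIs in CFTR_KO and 2676 UMIs in WT, it was detected in 1.79% and 2.74%, so that the glia-like share was above that level in both libraries. The intervals of CFTR_KO glia-like and CFTR_KO mature neuron-like nuclei (230.5 CPM) overlapped, while WT glia-like nuclei stood below the WT mature nuclei (805.2 CPM). Macrophage-like nuclei had 33.5 CPM (6 UMIs) in CFTR_KO and 325.1 CPM (101 UMIs) in WT. The WT value came from 14 of 79 nuclei, of which 1 held 28 UMIs, and after thinning the shares were 3.90% in CFTR_KO and 5.63% in WT. Gland-like nuclei had 16.8 CPM in CFTR_KO and 64.1 CPM in WT, and there 1 WT nucleus held 19 of the 62 UMIs.

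NRP2 was highest in lymphatic endothelial-like nuclei, named from PROX1, LYVE1, FLT4, RELN and MMRN1. Its level there was 993.9 CPM (833.9 to 1175.7, 136 UMIs) in CFTR_KO and 770.3 CPM (637.6 to 922.5, 118 UMIs) in WT, and after thinning it was detected in 52.7% of CFTR_KO and 57.6% of WT nuclei. Cluster 14, with collagen genes of fibroblasts and of bone, came next at 532.7 CPM in CFTR_KO and 557.7 CPM in WT, a log2 ratio of -0.07 (-0.33 to 0.20). Endothelial-like nuclei had 270.4 CPM in CFTR_KO and 146.6 CPM in WT, fibroblast-like nuclei 162.4 and 148.9 CPM, and macrophage-like nuclei 178.8 and 328.3 CPM. Sustentacular-like nuclei stood low, at 8.69 CPM in CFTR_KO and 11.8 CPM in WT. In both libraries NRP2 in mature neuron-like nuclei (58.9 CPM in CFTR_KO, 138.6 CPM in WT) was thus far below its level in lymphatic endothelial-like nuclei.

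Genes whose levels followed each gene over 29 profiles, 1 for each named class and library with at least 30 nuclei, were found by Pearson's r of log2(CPM + 20) among 10771 genes. This is a description, since profiles of a library share its depth and free RNA. NCAM2 was most like B4GALNT3 (r = 0.90), its paralog NCAM1 (0.88), CLIP4, RNFT2 and KIAA0408. NRP2 was most like the transcription factor gene MEF2A (0.86), the protease gene ADAM19, the ETS factor gene ELK3, SNRK and ASAP1. NQO1 had weaker likenesses, with C2CD5 (0.74), PLEKHM2, ATP6V1E1 (a subunit of the vacuolar proton pump), PNPLA8 and ACBD5. Between the 3 genes r was 0.05 for NQO1 and NCAM2, -0.28 for NQO1 and NRP2 and 0.27 for NCAM2 and NRP2. The pairing of NRP2 with NCAM2 seen among single mature nuclei thus had no close counterpart across cell classes.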

How the data were processed

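For each library the authors deposited a table of raw UMI counts, with genes against nuclei. Cell Ranger, Seurat 4.0 and R 4.0.2 are named, with no role or order, in the submitters' processing notes, and the genome build is not given in the sources used. Each table was tied to its library by a code at the end of the sample title. Genes, lists and markers were chosen with earlier results of these data known. CFTR_KO held 6054 barcodes with 16623086 UMIs, and WT 4715 with 18731495. Nuclei under 200 genes were removed. Scrublet's own threshold called 1 doublet per library and had not worked, so the top scores were removed at 0.8% per 1000 nuclei, 293 in CFTR_KO and 178 in WT. Counts scaled to 10000 per nucleus, 2000 variable genes, 30 components and 15 neighbours gave Leiden clusters at resolution 1 (scanpy 1.11.5). A name needed at least 3 markers, more than any other type. Clusters whose median UMI count was below 0.333 of their library's median got no name. Clusters 2 and 3 were too shallow and cluster 14 tied, so these stayed unnamed, and cluster 0 is given by number, since its leading genes conflicted with its name. A marker counted at a level, with 20 CPM added, 1 log2 unit above the median cluster, in at least 5% of nuclei and at 50% of its highest level.

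No test was made. CPM carry exact Poisson intervals, shares exact Clopper-Pearson intervals and ratios exact conditional binomial intervals, at 95%. Ratios over all genes needed at least 20 UMIs. The limit for a count of 0 is 3 counts of the total. Genes were named by rank, 5 nearest per gene and 10 per side of the sets, plus list members; the sets' rank used the smaller ratio of the 2 libraries. The ratio step was tested on simulated data. TMM scaling used edgeR 4.0.16 on summed counts. No sequences or coordinates are printed.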

Additional observations from a re-analysis of the deposited data

Results flagged for a closer look

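NRP2 went in opposite directions in 2 classes outside the neurons, and the difference between the classes was not tested. In endothelial-like nuclei its log2 ratio of CFTR_KO over WT was 0.883 (0.18 to 1.65), from 82 UMIs in 123 CFTR_KO nuclei and 21 UMIs in 51 WT nuclei. In gland-like nuclei it was -3.207 (-6.32 to -1.23), from 2 UMIs in 234 CFTR_KO nuclei and 30 UMIs in 233 WT nuclei. After thinning to 1000 UMIs the shares were 17.5% (CFTR_KO) and 15.2% (WT) of endothelial-like nuclei and 1.03% (CFTR_KO) and 2.49% (WT) of gland-like nuclei, with intervals that overlapped between the libraries in both classes.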

How the results depend on the processing

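No paired analysis was possible because there was 1 library per genotype, and no library could be left out in turn. No log2 ratio changed sign under the alternatives run. The CFTR_KO share of NCAM2-only among nuclei with exactly 1 of NQO1 and NCAM2 was 49.2% in the main setting. It ranged from 45% to 57.55% under the alternatives, so that which of the 2 sets was larger depended on the setting. In immature neurons 4, 4 and 3 of 10 alternatives left the main counting interval for NQO1, NCAM2 and NRP2. These log2 ratios of CFTR_KO over WT were 0.84, -0.96 and -0.59 in the main setting. Under the alternatives they ranged from 0.70 to 1.455, from -1.19 to -0.98 and from -0.92 to -0.61. Over all nuclei 1, 2 and 1 of 6 alternatives left it for the same genes. For results on mature neurons, the values that left the counting interval were as follows. The mature over immature log2 ratio in WT for NCAM2 was -0.21 at resolution 0.5, -0.37 at resolution 2, -0.30 with each library clustered on its own, -0.30 without doublet removal and -0.23 with nuclei weighted equally; under the last 4 of these it was 2.08, 1.73, 1.87 and 1.81 for NQO1, and -1.13, -1.13, -1.20 and -1.21 for NRP2. With each library clustered on its own, the NRP2 log2 ratio of CFTR_KO over WT in mature neurons was -0.95, and mature over immature in CFTR_KO was -1.28.

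Taking mature neurons nucleus by nucleus, from a UMI of at least 3 mature markers, gave a NCAM2-only share of 57.55% in CFTR_KO, NCAM2 in 12.8% (CFTR_KO) and 33.5% (WT) of nuclei without NQO1, and a log2 ratio of NRP2 between the sets of 1.54 in WT. NCAM2 shares followed the thinning. Without it they were 13.95% with NQO1 and 34.0% without in CFTR_KO, and 36.9% and 73.9% in WT. At 500 UMIs nuclei without NQO1 had 10.6% in CFTR_KO and 27.3% in WT, and WT nuclei with NQO1 had 10.3%. At 2000 UMIs nuclei without NQO1 had 27.2% in CFTR_KO and 63.5% in WT. Counting nuclei from 2 UMIs, the CFTR_KO NCAM2-only share was 57.2%, and WT shares were 5% with NQO1 and 57.4% without. With only the largest mature cluster of each library, cluster 4 in CFTR_KO and cluster 8 in WT, chosen after seeing the data, the log2 ratio was 1.91 for NQO1 and -2.05 for NCAM2. The cause of these shifts was not tested. Of the 5 genes nearest to NQO1, NCAM2 and NRP2, 4, 2 and 3 were also found with 5 CPM added, and 5, 4 and 5 among genes with at least 1000 UMIs. Few nuclei limit the counts in cluster 4 of WT, clusters 8 and 23 of CFTR_KO, and immature nuclei with NQO1.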

Other observations

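Cluster 2 stayed unnamed for its depth, a median of 535 UMIs, the lowest of the clusters, and held 959 CFTR_KO and 18 WT nuclei. Its markers were mixed, with 5 of respiratory secretory cells and 4 of mature neurons. The secreted airway gene BPIFA1 led, and the collagen genes COL1A1 and COL1A2 were also among its leading genes. The sum of the 6 neuron markers was 3733.8 CPM there in CFTR_KO, against 1610.3 CPM in CFTR_KO mature neuron-like nuclei. NQO1 stood at 230.6 CPM (193.2 to 273.1, 134 UMIs) there in CFTR_KO, with NCAM2 at 74.0 CPM and NRP2 at 53.3 CPM, and the 18 WT nuclei held 1 NQO1 UMI. It held 10.6% of the NQO1 UMIs of CFTR_KO and 3.84% of all its UMIs.

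In immature nuclei with NQO1 but no NCAM2, NRP2 was detected in 4 of 53 CFTR_KO nuclei (7.55%, 2.10 to 18.2) and in 12 of 29 WT nuclei (41.4%, 23.5 to 61.1). The CFTR_KO nuclei had a median of 3454 UMIs and a median doublet score of 0.0317, and the WT nuclei a median of 5449 UMIs and a median score of 0.0698. After thinning to 1000 UMIs, NRP2 was found in 0 of 52 CFTR_KO nuclei, which allows a share of up to 5.77%, and in 3 of 29 WT nuclei (10.3%, 2.19 to 27.4). In mature WT nuclei with NQO1 but no NCAM2 the thinned share was 1.43% (0.04 to 7.70), and these intervals overlapped. The part of doublets was not tested.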
